A study of Mus musculus with 6 samples.

Results

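The 10 genes described here encode hepatic acute-phase proteins, namely the serum amyloid A genes Saa1, Saa2 and Saa3, the lipocalin gene Lcn2, the orosomucoid genes Orm1 and Orm2, the haptoglobin gene Hp, the hemopexin gene Hpx and the pentraxin genes Crp and Apcs. They were chosen by name, and each was found on the array by the RefSeq accession of its probe. All 10 were present, with 1 probe each, among 37074 genes on the array, and all 10 were among the 22355 genes tested. Liver RNA came from hemizygous L1-Tg mice, which express human NPC1L1 in hepatocytes from an APOE promoter, and from their WT littermates. The line had been backcrossed to C57BL/6J for at least 8 generations. All mice were males, given as 6 to 12 weeks of age for the study as a whole, and the array compared L1-Tg with WT mice fed a control-fat diet (CFD), to describe the basal state of the liver before any high-fat diet. Each group had 3 arrays, and each array held a pool of RNA from 2 or 3 mice, so the spread between arrays understates the spread between single mice.

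The acute-phase response is the change in plasma protein output that the liver makes during infection or injury. Interleukin-6 acts on hepatocytes through JAK kinases and STAT3, while interleukin-1 and tumour necrosis factor act through NF-kB and C/EBP factors, and together they raise the transcription of positive acute-phase genes and lower that of negative ones such as albumin. In the mouse, serum amyloid A proteins and the pentraxin serum amyloid P (Apcs) respond strongly, whereas C-reactive protein (Crp) responds weakly compared with its human counterpart. Lipocalin 2 is made by hepatocytes under these signals and is also stored in neutrophil granules.

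Several of these genes are neighbours. The mouse RefSeq gene order placed Saa3, Saa4, Saa1 and Saa2 together on chromosome 7, Orm1, Orm3 and Orm2 together on chromosome 4, and Crp and Apcs close to each other on chromosome 1. The 250 bases before the transcription start were available for 8 of the 10 genes in the RefSeq table of assembly GRCm38.p6. The windows of Saa1 and Saa2 are shown because the signals of these paralogs moved together across the arrays, that of Lcn2 because its values separated the groups, and those of Orm2 and its paralog Orm3 because the differences of this related pair were of unequal size. Each is printed 5′ to 3′ on the strand of its gene, and capitals mark matches to the C/EBP pattern TTNNGNAA, searched on both strands.
Saa1, chr7:46742981-46743230, minus strand: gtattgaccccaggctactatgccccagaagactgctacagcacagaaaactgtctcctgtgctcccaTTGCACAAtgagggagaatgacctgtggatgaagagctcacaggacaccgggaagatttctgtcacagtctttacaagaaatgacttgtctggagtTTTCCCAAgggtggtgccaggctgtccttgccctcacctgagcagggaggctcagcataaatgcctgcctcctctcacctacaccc
Saa2, chr7:46751583-46751832, plus strand: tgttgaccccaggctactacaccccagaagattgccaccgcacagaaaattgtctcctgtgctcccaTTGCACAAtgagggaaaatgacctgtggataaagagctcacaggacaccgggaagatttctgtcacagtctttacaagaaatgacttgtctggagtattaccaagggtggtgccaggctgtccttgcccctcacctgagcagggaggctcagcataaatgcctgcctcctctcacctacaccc
Lcn2, chr2:32387740-32387989, minus strand: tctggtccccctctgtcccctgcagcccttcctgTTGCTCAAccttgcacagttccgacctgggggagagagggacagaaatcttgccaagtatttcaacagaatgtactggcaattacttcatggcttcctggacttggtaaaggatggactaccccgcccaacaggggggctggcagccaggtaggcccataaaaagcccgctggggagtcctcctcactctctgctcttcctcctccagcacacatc
Orm2, chr4:63362199-63362448, plus strand: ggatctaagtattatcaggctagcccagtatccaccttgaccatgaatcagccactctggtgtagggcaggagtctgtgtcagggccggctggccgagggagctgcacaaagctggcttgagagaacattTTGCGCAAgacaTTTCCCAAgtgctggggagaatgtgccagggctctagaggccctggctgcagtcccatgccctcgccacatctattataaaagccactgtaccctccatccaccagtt
Orm3, chr4:63355908-63356157, plus strand: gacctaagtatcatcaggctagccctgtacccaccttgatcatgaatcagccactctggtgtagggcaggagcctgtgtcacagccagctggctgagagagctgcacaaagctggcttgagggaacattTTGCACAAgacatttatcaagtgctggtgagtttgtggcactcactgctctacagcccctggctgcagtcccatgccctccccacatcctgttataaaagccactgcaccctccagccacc

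The Saa1 and Saa2 windows were identical at 238 of 251 aligned positions (94.8%), and those of Orm2 and Orm3 at 219 of 255 (85.9%). The 43 other pairings among the 10 windows compared, which included Saa4, lay between 45.5% and 54.9%. At least 1 C/EBP match was present in 7 of the 8 acute-phase promoters, against 36.8% of 32851 promoter windows in the table, and Apcs was the exception. Matches were counted as 4 in Saa3, 2 each in Saa1, Orm2 and Hpx, and 1 each in Saa2, Lcn2 and Crp. The further match in Saa1, TTTCCCAA, lay 86 to 79 bases before the start, and Saa2 had no match there. Apcs was the only one of the 8 with the STAT pattern TTCNNNGAA, present in 7.02% of all windows, and with the interleukin-6 element CTGGGAA, present in 9.10% and found 2 times in Apcs. The TATA box letters TATAAA were found in Orm2 and Crp, against 12.4% of all windows. No NF-kB match was found in the 8 windows, against 7.25% of all. None of the matches in the 8 windows overlapped a match to another pattern. These are letter matches in a short window and say nothing on whether a factor was bound.

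Signals are given as log2 of the processed spot intensity minus log2 of the 75th percentile of that array, so that a value of 1 unit more is a doubling of the signal on the same probe. The 75th percentile lay between 297 and 378 intensity units on the 6 arrays, and 53.1% to 59.2% of spots were well above background. All 6 arrays lay on 1 slide in 1 scan, and row 1 of the slide held the 3 WT pools while row 2 held the 3 L1-Tg pools, so slide row and genotype cannot be told apart. In both groups the replicate number was also the slide column. All 12 hepatocyte markers listed were measured. The probe of the mouse Npc1l1 gene was well above background on 1 of 3 L1-Tg arrays and 2 of 3 WT arrays, and it does not report the human transgene. L1-Tg replicate 2 stood apart from the other arrays in the summed pancreatic and erythroid markers. The summed level of the pancreatic markers was 25.0 times the 75th percentile there and 2.49 to 3.58 on the other 5 arrays, and that of the erythroid markers was 219 against 106 to 124. For this reason results are given with and without that array. The 1 adipocyte marker tested, Cfd, was instead highest on WT replicate 1, at 2.54 times the 75th percentile. Cfd was at 1.74 on L1-Tg replicate 2 and at 0.062 to 0.47 on the other arrays.

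All 10 acute-phase genes were well above background on all 6 arrays, and none was saturated. The mean of the L1-Tg arrays was higher than that of the WT arrays for 10 of 10 genes, where 43.1% of all genes tested had a positive difference. That background share depended on the scaling, at 53.5% with quantile normalization, 55.0% without scaling and 66.3% with the array median, and 10 of 10 genes were higher under each. The median log2 difference was 0.43, with a range from 0.06 for Saa3 to 1.79 for Lcn2, beside a median of -0.03 over all genes tested. No acute-phase gene passed an adjusted p of 0.05 in limma, where 0.121% of all genes were called higher and 0.00895% lower, 0.13% in all. Lcn2 was the only one of the 10 with an unadjusted p under 0.05 (4.54% of all genes in this direction, 8.86% in either) and the only one whose L1-Tg and WT arrays did not overlap (7.27% of all genes, higher). The 10 genes were measured on the same arrays and several of them moved together from array to array, so their shared direction is not 10 separate observations. In bulk liver RNA, fewer or more cells of a type and less or more RNA per cell cannot be told apart.

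**Figure D1:**
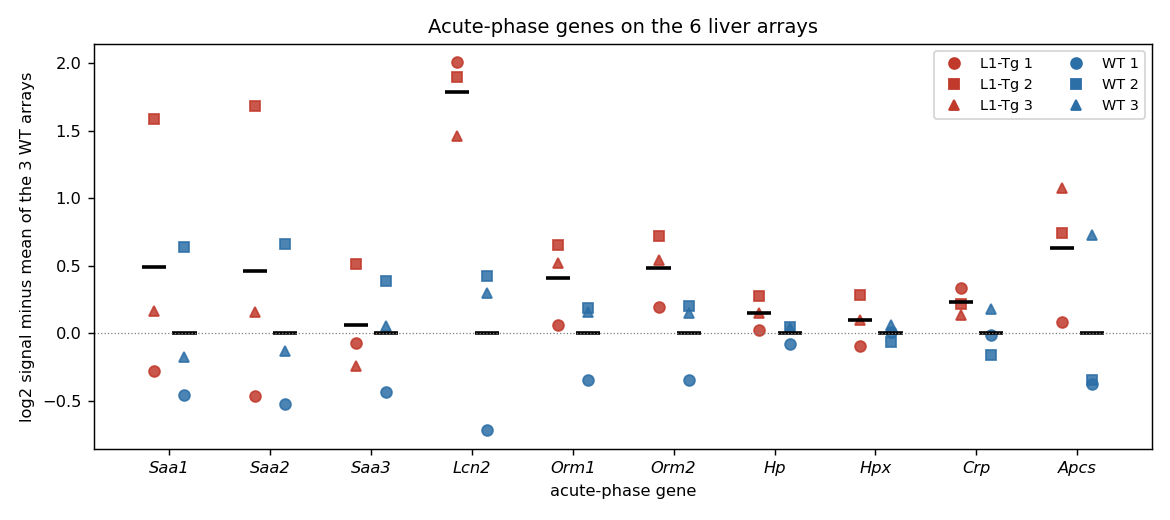
Log2 signal of the 10 acute-phase genes on each array minus the mean of the 3 WT arrays for that gene, with L1-Tg arrays in red, WT arrays in blue, 1 symbol per replicate number and a black bar at the group mean. Only Lcn2 has all L1-Tg arrays above all WT arrays, and for Saa1 and Saa2 L1-Tg replicate 2 lies far above the other 5 arrays.

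Lcn2 encodes lipocalin 2, a secreted protein that binds bacterial siderophores and so withholds iron. Its log2 signal was 3.67, 3.56 and 3.12 on L1-Tg arrays 1, 2 and 3, and 0.94, 2.08 and 1.96 on WT arrays 1, 2 and 3. The same probe read 4796, 3490 and 2935 intensity units on the L1-Tg arrays and 606, 1331 and 1320 on the WT arrays before scaling. All L1-Tg arrays were above all WT arrays, the L1-Tg arrays lay close to each other, and WT replicate 1 was well below the other WT arrays. The group means were 3.45 ± 0.29 in L1-Tg and 1.66 ± 0.63 in WT (SD, n = 3 each). The log2 difference was 1.79 with a standard error of 0.33, a 3.45-fold higher signal with a 95% confidence interval of 2.003 to 5.96. Its limma p was 0.00126 before adjustment, rank 107 of the 22355 genes tested, and 0.264 after Benjamini-Hochberg adjustment over all of them. Of all genes tested, 0.327% had a larger positive difference. Without L1-Tg replicate 2 the difference was 1.73 (SE 0.40, limma adjusted p = 0.414), and without WT replicate 1 it was 1.43 (SE 0.19, limma adjusted p = 0.181).

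Saa1 and Saa2 encode the serum amyloid A proteins that the liver releases into plasma on high-density lipoprotein. The log2 signal of Saa1 was 5.97, 7.84 and 6.41 on L1-Tg arrays 1, 2 and 3, and 5.80, 6.89 and 6.07 on WT arrays 1, 2 and 3. That of Saa2 was 5.41, 7.55 and 6.03 on the L1-Tg arrays and 5.35, 6.53 and 5.74 on the WT arrays. In both genes L1-Tg replicate 2 was far above the other L1-Tg arrays, WT replicate 2 was the highest WT array, and the groups overlapped. Within the L1-Tg group the highest array was 3.65-fold above the lowest for Saa1 and 4.42-fold for Saa2, and within the WT group 2.13-fold and 2.27-fold. The differences between groups were smaller than these spreads, at 0.49 for Saa1 (95% confidence interval -0.77 to 1.75, limma adjusted p = 0.766) and 0.46 for Saa2 (-0.94 to 1.86, limma adjusted p = 0.803). The intervals reach 3.37-fold and 3.64-fold higher, so a sizeable increase in L1-Tg mice could not be told from none with these arrays. Without L1-Tg replicate 2 both differences changed sign, to -0.06 for Saa1 and -0.15 for Saa2. The transcripts of these paralogs are alike, and the array files do not show whether each probe reads its own transcript alone.

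Saa3 encodes a serum amyloid A protein made mainly outside hepatocytes, in macrophages and adipose tissue among other sites. Its log2 signal was 1.27, 1.86 and 1.11 on the L1-Tg arrays and 0.91, 1.73 and 1.40 on the WT arrays, in the order of replicates 1, 2 and 3. The groups overlapped throughout, and replicate 2 was the highest array in each group. The log2 difference was 0.06 (SE 0.27, limma adjusted p = 0.951), the smallest of the 10 genes. It turned to -0.16 without L1-Tg replicate 2 and to -0.16 without WT replicate 1. The constitutively expressed paralog Saa4 read 4.53, 4.76 and 4.62 on the L1-Tg arrays and 4.74, 4.32 and 4.20 on the WT arrays, a difference of 0.22 (SE 0.16, limma adjusted p = 0.678). WT replicate 1, the lowest array for Saa1, Saa2 and Saa3, was the second highest for Saa4.

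Orm1 and Orm2 encode orosomucoids, plasma glycoproteins that bind basic and neutral drugs and temper immune cells. The log2 signal of Orm1 was 6.07, 6.66 and 6.53 on L1-Tg arrays 1, 2 and 3, and 5.66, 6.20 and 6.17 on WT arrays 1, 2 and 3. That of Orm2 was 6.09, 6.61 and 6.44 on the L1-Tg arrays and 5.55, 6.10 and 6.04 on the WT arrays. In both genes L1-Tg replicates 2 and 3 were above every WT array, and L1-Tg replicate 1 fell within the WT range. The log2 difference was 0.41 for Orm1 (SE 0.21, limma adjusted p = 0.611) and 0.48 for Orm2 (SE 0.20, limma adjusted p = 0.560), folds of 1.33 and 1.40. Without L1-Tg replicate 2 these were 0.29 and 0.37, and without WT replicate 1 they were 0.24 and 0.31. The probe of the third gene of the cluster, Orm3, read 1.74, 2.63 and 2.14 on the L1-Tg arrays and -0.12, 1.40 and 1.05 on the WT arrays. The groups did not overlap for Orm3, with WT replicate 1 far below the rest. Its difference was 1.39 (SE 0.43, limma adjusted p = 0.481), and it was 1.16 without L1-Tg replicate 2 and 0.95 without WT replicate 1. The difference of Orm3 exceeded those of Orm1 and Orm2, though this was not tested, and whether a probe also binds the transcripts of the other orosomucoids cannot be seen in these files.

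Hp encodes haptoglobin, which binds free haemoglobin, and Hpx encodes hemopexin, which binds free haem. The log2 signal of Hp was 10.07, 10.33 and 10.20 on L1-Tg arrays 1, 2 and 3, and 9.97, 10.09 and 10.08 on WT arrays 1, 2 and 3. That of Hpx was 9.56, 9.93 and 9.75 on the L1-Tg arrays and 9.66, 9.58 and 9.71 on the WT arrays. For Hp only L1-Tg replicate 1 lay within the WT range, and for Hpx the groups were interleaved, with L1-Tg replicate 1 the lowest of the 6 arrays. The log2 difference was 0.15 for Hp (95% confidence interval -0.10 to 0.40, limma adjusted p = 0.667) and 0.10 for Hpx (-0.20 to 0.39, limma adjusted p = 0.801). In the main setting the upper ends of these intervals were 1.32-fold for Hp and 1.31-fold for Hpx. They depend on the scaling and on the spread between pools. The difference was 0.26 for Hp with the array median and 0.24 for Hpx with quantile normalization, the highest of the alternatives. The lowest were 0.09 for Hp and 0.0026 for Hpx, both without L1-Tg replicate 2.

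Crp and Apcs encode the pentraxins, ring-shaped pattern-recognition proteins of plasma. The log2 signal of Crp was 4.52, 4.40 and 4.33 on L1-Tg arrays 1, 2 and 3, and 4.18, 4.02 and 4.36 on WT arrays 1, 2 and 3. That of Apcs was 3.34, 3.99 and 4.33 on the L1-Tg arrays and 2.88, 2.91 and 3.98 on the WT arrays. WT replicate 3 was the highest WT array in both genes, and it lay above L1-Tg replicate 3 for Crp and above L1-Tg replicate 1 for Apcs. The log2 difference was 0.23 for Crp (SE 0.12, limma adjusted p = 0.612) and 0.63 for Apcs (SE 0.38, limma adjusted p = 0.638), folds of 1.17 and 1.55. Crp was the gene least altered by leaving out L1-Tg replicate 2, at 0.24 without it, and Apcs was at 0.58.

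Leaving out L1-Tg replicate 2 lowered the difference of every acute-phase gene but Crp, by unequal amounts. Hpx went from 0.10 to 0.0026, Orm1 from 0.41 to 0.29 and Lcn2 from 1.79 to 1.73. Without that array, 7 of 10 genes kept a positive difference and the median fell from 0.43 to 0.16. The median over all genes tested was then -0.04. No acute-phase gene was called in limma, against 0.0659% of the 22770 genes then tested. Lcn2 alone had an unadjusted p under 0.05 (4.18% of all genes, higher) and non-overlapping groups (11.7% of all genes, higher). The L1-Tg side had been uneven from the start, since L1-Tg replicate 2 was the highest of the 6 arrays for 7 of 10 genes, all but Lcn2, Crp and Apcs. On the WT side, replicate 1 was the lowest of the 6 arrays for 8 of 10 genes, all but Hpx and Crp, and without it the median of the differences was 0.23, with 9 of 10 positive.

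**Figure D2:**
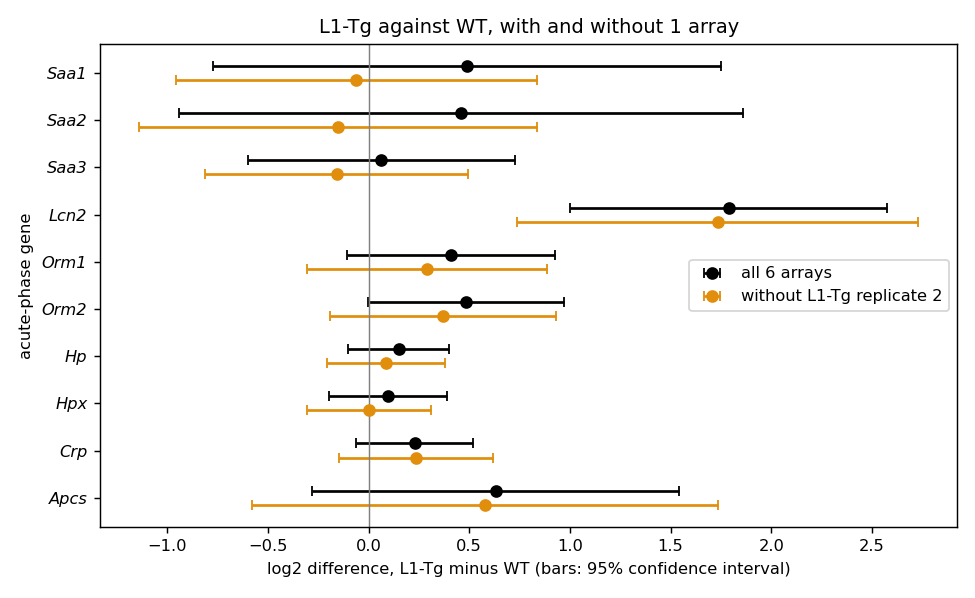
Log2 difference between L1-Tg and WT arrays for each acute-phase gene, from all 6 arrays in black and without L1-Tg replicate 2 in orange, with bars for the 95% confidence interval of limma. The interval of Lcn2 stays above 0 both ways, from 1.00 to 2.57 and from 0.74 to 2.73, and those of the other genes include 0.

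The study's own measure of change, the difference index, divides the difference of the group means by the sum of the group SDs on the linear scale and takes values beyond 0.7 as changed. By this index 5 of 10 genes were higher in L1-Tg mice, against 8.68% of all genes on the array, and 0 of 10 were lower, against 21.6%. These shares are over 37069 genes without a filter on dim probes, whereas all 10 acute-phase genes were well above background. The 5 were Lcn2 at 2.32, Orm2 at 0.88, Crp at 0.84, Hp at 0.76 and Orm1 at 0.71. Saa1 at 0.37, Saa2 at 0.35, Saa3 at 0.08, Hpx at 0.40 and Apcs at 0.53 were within the threshold. Apcs, Saa1 and Saa2 fell short of it although their log2 differences exceeded that of Hp. Without L1-Tg replicate 2, and also without L1-Tg replicate 3, the index passed 0.7 for Lcn2 and Crp only.

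The genes fell into groups by how they varied over the 6 arrays, described here by Pearson's r of their log2 signals, which shares the arrays, their scaling and any difference between groups. Saa1 and Saa2 were nearly superimposable, with r of 0.997 and centred values never more than 0.17 apart, and Orm1 and Orm2 likewise, with r of 0.989 and a largest gap of 0.10. Hp followed Orm1 (r = 0.962) and Orm2 (r = 0.961) at a smaller amplitude. Lcn2 followed Orm2 (r = 0.820) more closely than Saa1 (r = 0.467), and Crp showed no relation to Saa1 (r = -0.04). Over the median of the 10 genes relative to the WT mean, the arrays read 0.04, 0.69 and 0.16 in L1-Tg and -0.36, 0.20 and 0.10 in WT. L1-Tg replicates 1 and 3 were thus within the WT range, even though the Lcn2 signal of L1-Tg replicate 1 was the highest of all. Outside the list, the genes whose 6 values were most like the mean of the acute-phase genes were Ube2u (r = 0.991), A530064D06Rik (r = 0.982), Med8 (r = 0.974), Tubgcp4 (r = 0.967) and Psmb6 (r = 0.966). With 6 arrays such values are easily reached, and 55 of 13929 genes compared had r above 0.9.

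Other genes of the acute-phase response were read from the same fit. Of 21 further positive acute-phase genes, 11 had a positive and 10 a negative difference, with a median log2 difference of 0.03 and a range from -0.43 to 0.74. This split moved with the scaling and the arrays, to 15 of 21 positive with quantile normalization (median 0.12), 16 with the array median (0.14) and 6 without L1-Tg replicate 2 (median -0.12). None was called in limma, and none had groups that did not overlap. The metalloreductase gene Steap4 was the 1 gene of the 21 with an unadjusted p under 0.05, a share near that of all genes (4.54% higher), and no gene of the list had one with the methods' t-test, a replicate block or no filter on dim probes. Its log2 signal was 1.17, 0.36 and 1.41 on the L1-Tg arrays and 0.56, 0.28 and -0.11 on the WT arrays, for a difference of 0.74 (SE 0.31, limma adjusted p = 0.560). Classical members of the class, named after their values were seen, had small differences, such as 0.04 for the fibrinogen chain Fgb, 0.11 for Serpina3n and -0.34 for Hamp, the iron hormone hepcidin (limma adjusted p of 0.940, 0.732 and 0.695). The difference of Lcn2 was thus larger than that of any of the 21.

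Of 11 negative acute-phase genes, 9 were lower and 2 higher, with a median of -0.09, but the direction of the list turned with the scaling, with 7 of 11 higher and medians of 0.01 and 0.02 under quantile normalization and the array median. None was called in limma. Igf1, the liver-derived growth factor, had a difference of -0.53 (SE 0.14, limma adjusted p = 0.447), and Apoa1, the main protein of high-density lipoprotein, one of -0.49 (SE 0.18, limma adjusted p = 0.532). These were the only 2 of the 11 with an unadjusted p under 0.05 (4.32% of all genes, lower). Groups did not overlap for Igf1, Apoa1 and Apom (8.61% of all genes, lower). Albumin (Alb), the most familiar negative acute-phase protein, had a difference of -0.11 (SE 0.11).

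**Figure D3:**
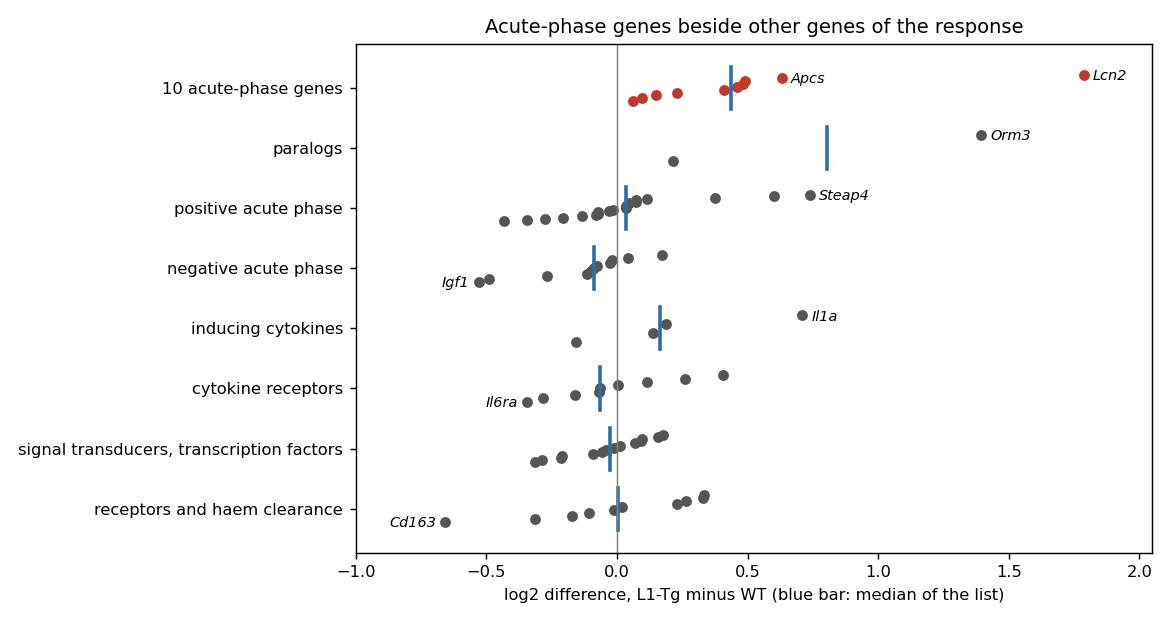
Log2 difference between L1-Tg and WT arrays for each tested gene of the 10 acute-phase genes (red) and of 7 lists of related genes (grey), 1 point per gene, with a blue bar at the median of each list. The acute-phase genes have a median of 0.43, against 0.03 for 21 other positive acute-phase genes and -0.09 for 11 negative ones, the last of which turned to 0.01 with quantile normalization and 0.02 with the array median.

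The signals that induce these genes were near the limit of the array. Il6, Tnf, Lif and Osm had probes but were not well above background on all arrays of either group and were not tested. Of the 4 cytokine genes tested, Il1a had a difference of 0.71 (SE 0.30, limma adjusted p = 0.562), with only 1 of 3 WT arrays well above background. It was tested only because all 3 L1-Tg arrays passed the filter, and its difference was 0.05 with normexp background correction. Il22 had 0.19 (0.05 with normexp background correction), Il1b 0.14 and Il11 -0.16, with no call in limma. Among 9 receptor genes 4 were higher and 5 lower, or 6 and 3 with the array median. The groups did not overlap for 1 gene in each direction, against 7.27% of all genes higher and 8.61% lower. The interleukin-6 receptor gene Il6ra was lower on every L1-Tg array, with a difference of -0.35 (SE 0.11, limma adjusted p = 0.499), and the tumour necrosis factor receptor gene Tnfrsf1a higher on every L1-Tg array, with a difference of 0.11 (SE 0.09, limma adjusted p = 0.678). Among 14 signal transducers and transcription factors 6 were higher and 8 lower (10 and 4 with the array median), with Jak1 at -0.21 (SE 0.08, limma adjusted p = 0.549). Stat3 was at -0.01 (SE 0.12), and its feedback inhibitor Socs3 at -0.31 (SE 0.35), both named after their values were seen. Of 10 tested genes for the receptors of these proteins and the clearance of haem, 5 were higher and 5 lower (7 and 3 with the array median), with none at an unadjusted p under 0.05. The 4 with the smallest p were Lrp1, the hemopexin receptor, at -0.17, Blvrb at 0.23, Hmox1, which breaks down haem, at 0.33 and Slc22a17, a lipocalin 2 receptor, at -0.31.

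Cell type markers that could carry part of these signals also varied between arrays. Of the neutrophil markers 7 of 12 were tested, of which 5 were higher and 2 lower, with a median of 0.54. Some of the higher ones had passed the filter through the L1-Tg arrays alone. Where only genes well above background on all arrays were kept, 5 were tested, 3 higher and 2 lower, with a median of 0.20. Cxcr2, Ngp, Ltf and Mmp8 were not well above background on all arrays of either group, and Ly6g was not matched to a probe. S100a8, a granulocyte alarmin, read -0.21, 0.71 and -0.25 on the L1-Tg arrays and -1.51, -1.16 and -0.06 on the WT arrays, a difference of 0.99 (SE 0.43, limma adjusted p = 0.566). S100a9, its partner, had a difference of 0.87 (SE 0.44). For both, WT replicate 3 lay above L1-Tg replicates 1 and 3. The 2 lower markers were Csf3r, below every WT array on every L1-Tg array with a difference of -0.24 (SE 0.09, limma adjusted p = 0.535, the 1 marker of the list with an unadjusted p under 0.05), and Elane at -0.71 (SE 0.49). The summed neutrophil markers ranged from 178 to 197 in L1-Tg and from 210 to 259 in WT. Most of this signal came from Csf3r, which read 7.31 to 7.67 over the 6 arrays, against 0.21 to 2.33 for S100a9. The sum therefore followed Csf3r and Elane, the 2 lower markers, and does not stand for the list. Of the macrophage and Kupffer cell markers, 11 of 12 were tested and all 11 had higher means in L1-Tg mice, with a median of 0.32, no call in limma and sums of 173 to 203 in L1-Tg against 109 to 202 in WT. Without WT replicate 1, 9 of 11 were higher and the median was 0.13. The median was 0.64 without WT replicate 3. WT replicate 1 had the lowest macrophage sum and was also the lowest array for 8 of the acute-phase genes. Of 12 hepatocyte markers 2 were higher and 10 lower, with a median of -0.14. Their sums were 3713 to 4219 in L1-Tg and 4091 to 4508 in WT. The median was -0.035 with quantile normalization and -0.030 with the array median, with 3 of 12 higher in both. With an array left out the median ran from -0.20 to -0.06, with 0 to 4 of 12 higher. The part of these cells in the acute-phase differences was not tested, nor was that of the pancreatic and erythroid signal in L1-Tg replicate 2, where Ctrb1 read 4.17 against 0.98 to 1.13 on the other arrays. That signal was not limited to this array for every marker, since the pancreatic gene Cela2a read 0.25 on L1-Tg replicate 3, against 1.498 on L1-Tg replicate 2, -2.19 on L1-Tg replicate 1 and -3.92 to -2.97 in WT. The erythroid gene Alas2 read 4.77 on L1-Tg replicate 3 and 4.69 on L1-Tg replicate 2. Alas2 was at 4.17 on L1-Tg replicate 1 and at 4.10 to 4.54 in WT. On L1-Tg replicate 3 the erythroid genes Hba-a1 and Hbb-bs lay within the WT range.

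**Figure D4:**
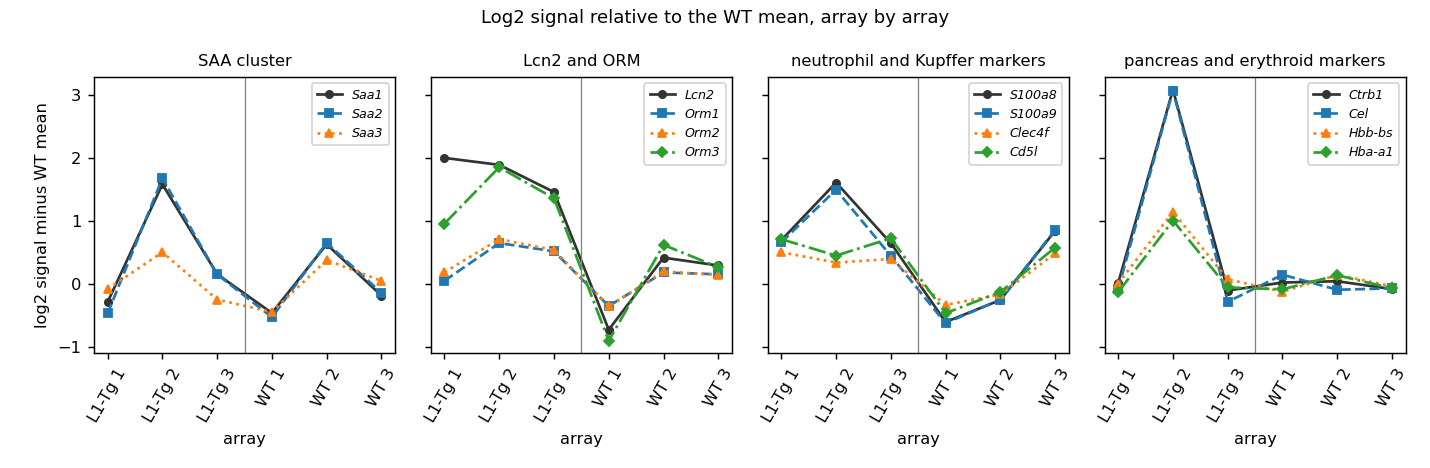
Log2 signal minus the WT mean on each array for the serum amyloid A genes, for Lcn2 and the orosomucoid genes, for 4 neutrophil and Kupffer cell markers and for 4 pancreatic and erythroid markers. Lines only join the points of a gene, since replicates have no order. Saa1 and Saa2 are highest on L1-Tg replicate 2, as are the plotted markers Ctrb1, Cel, Hba-a1 and Hbb-bs. The erythroid gene Alas2, not plotted, is highest on L1-Tg replicate 3. The neutrophil markers Csf3r and Elane, lower in L1-Tg mice, are not plotted either. Lcn2 is high on all 3 L1-Tg arrays. Any link between these patterns was not tested.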

How the data were processed

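Liver RNA of L1-Tg and WT mice was measured on 6 one-colour Agilent arrays, 3 per group, grouped by the genotype in their labels. The authors deposited the Feature Extraction 10.10.1.1 output of each array, in which the processed signal is an intensity on a linear scale with background subtracted and no scaling between arrays, together with a table of these intensities times 1 factor per array. For the present work, spots of a probe were averaged, 3671 control spots were left out, log2 intensities were centred on the 75th percentile of each array, and probes were named through their RefSeq accessions, of which 27235 of 28685 matched. Genes were represented by their brightest probe and tested where that probe was well above background throughout 1 group or both. L1-Tg and WT were compared with limma 3.58.1 in R 4.3.3, two-sided, with Benjamini-Hochberg adjustment over 22355 genes and a threshold of 0.05. In simulated data of the same comparison on 22337 genes, 48% of genes changed by a log2 difference of 1 were called. Of those changed by 2, 86% were called, and 9 of 143 calls were false. These shares are not specific to the acute-phase genes, whose standard errors ran from 0.10 for Hp to 0.58 for Saa2. The share called at such standard errors was not tested. An exact permutation test of 3 against 3 arrays cannot give a p below 0.1. Precision is limited by the few arrays, and p-values measure the spread between pools. The methods' difference index was computed on linear scaled intensities.

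The acute-phase genes and all lists were chosen with earlier results of these data known. Named were all 10 genes with Saa4 and Orm3, genes of each related list with an unadjusted p under 0.05 or otherwise the 4 with the smallest p, up to 3 genes per marker list, and the 5 most alike profiles. Alternatives covered scaling, background correction, the deposited table, filters, probe choice, an ordinary equal-variance t-test, a replicate block and leaving out each array.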

Additional observations from a re-analysis of the deposited data

How the results depend on the processing

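No acute-phase gene was called under any of the 16 alternatives. The difference of Lcn2 stayed positive under all of them, between 1.43 and 2.0, with limma adjusted p from 0.112 (array median) to 0.619 (without L1-Tg replicate 3), and its groups did not overlap under any. Centring on the array median moved the median of all genes from -0.03 to 0.08, a shift that every gene shares. Leaving out each array in turn gave medians of the acute-phase genes from 0.16 (without L1-Tg replicate 2) to 0.61 (without L1-Tg replicate 1), and 2 (without L1-Tg replicate 2 or 3) to 7 (without L1-Tg replicate 1) genes past the difference index, which was 4 to 6 under the other alternatives. The signs of 3 genes changed with the arrays used. Saa1 lay between -0.060 (without L1-Tg replicate 2) and 0.87, Saa2 between -0.15 (without L1-Tg replicate 2) and 0.92, and Saa3 between -0.16 (without L1-Tg replicate 2, and also without WT replicate 1) and 0.26. Related genes near 0 changed sign too, with ranges over left-out arrays of -0.063 to 0.17 for Fgb, -0.16 to 0.42 for Il1b and -0.077 to 0.061 for Stat3. Stat3 was 0.015 with quantile normalization, 0.099 with the array median, 0.045 without scaling, 0.038 in the deposited table and 0.014 with the mean of its probes. The cause was not tested.

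Acute-phase genes whose groups did not overlap numbered 1 in the main setting (7.27% of all genes), 3 with quantile normalization (10.04%), normexp (6.76%) or the deposited table (9.88%), 2 with the array median (11.3%) and 5 without scaling (4.93%). With an array left out they numbered 1 to 6, while the share of all genes was 10.4% to 13.7%, and the 6, without L1-Tg replicate 1, stood beside 11.1%. Over all genes, 29 were called in the main setting, 10 without the filter on dim probes and 15 to 36 with an array left out. An ordinary equal-variance t-test, which the study does not describe for its arrays, called 0 genes. In that t-test 1 acute-phase gene had an unadjusted p under 0.05. Over all genes, replicate numbers showed no pairing of the arrays, with correlations of same-numbered deviations of -0.16, 0.11 and 0.02. Same-numbered arrays shared a slide column, however. For Saa1, Saa2, Orm1, Orm2, Hp and Apcs the replicates ranked in the same order in both groups. Whether the arrays were paired for these genes was not tested. With the number as a replicate block, 11 genes and 0 acute-phase genes were called, 4 acute-phase genes had an unadjusted p under 0.05 (8.28% of all genes in either direction), and Lcn2 had a limma adjusted p of 0.364.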
